A study of Mus musculus with 23 samples.

Results

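Spleen dendritic cells were examined in single-cell RNA sequencing libraries of WT mice and of mice that carry a changed tyrosine of STAT5B, Y665H or Y665F. A droplet barcode was a member when it held at least 500 genes, at most 10% mitochondrial unique molecular identifiers (UMIs), at most 1 Cd79a UMI, at most 1 UMI of Cd3d, Cd3e and Cd3g together, and under 5% of its UMIs in S100a8 and S100a9. It also needed either 2 or more Siglech UMIs (the Siglech gate) or 5 or more H2-Aa UMIs with 2 or more UMIs of Flt3, Xcr1, Clec9a and Itgax together (the class II gate). Members were thus chosen by measured UMIs of these genes, whose values are given only as a description. The criteria found 218 of the 19566 spleen cells that passed the gene and mitochondrial filters, of 114831 such cells in the 16 expression libraries of the series. WT gave 71 members of 6743 cells, Y665H gave 119 of 7876 and Y665F gave 28 of 4947.

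The mice are labelled C57BL/6 and were 2 months old. Per the methods the mutants were made in C57BL/6N mice, and the changed codon was introduced into the Stat5b gene of the germline, so every cell of an animal carries it. The spleen labels give the genotype as WT, STAT5B-Y665H or STAT5B-Y665F and do not give zygosity. The paper's results state that CD45+ cells, the leukocytes, were isolated from spleens. Its figure legend gives each genotype as 1 sample of cells combined from several mice. With 1 library per genotype there was no replicate, no test was made, and each interval printed is a 95% interval of counting error only. Genotype, animals, library preparation and sequencing therefore cannot be told apart.

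Dendritic cells take up antigen, cut it into peptides and show these to T cells on MHC class II molecules. They arise from marrow precursors under the cytokine FLT3 ligand. Plasmacytoid dendritic cells, which carry the surface lectin Siglec-H and depend on the factor TCF4, are known for making type I interferon. Conventional dendritic cells fall into a first type (cDC1), which carries XCR1 and CLEC9A, depends on IRF8 and BATF3 and shows captured antigen to CD8 T cells, and a second type (cDC2), which in the spleen relies on Notch signals and primes CD4 T cells. After activation, dendritic cells raise the chemokine receptor CCR7 and the actin-bundling protein fascin (Fscn1) and move to the T-cell zones. STAT5 acts downstream of GM-CSF, thymic stromal lymphopoietin and other cytokines of these cells.

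The median member held 8681 UMIs and 2778 genes in WT, 8689 and 2772 in Y665H, and 9014 and 2777.5 in Y665F. In cells with 2 or more UMIs of Xcr1 and Clec9a together, a gate described below, the medians were 10204, 10137 and 5443 UMIs and 2425, 2770.5 and 1169 genes, so the Y665F cells were shallower there. The median of all cells that passed the filters was 5499, 5158 and 6771 UMIs, and the libraries held 40480676, 47206322 and 36889328 UMIs. Of these cells, 12, 6 and 18 barcodes were shared between WT and Y665H, WT and Y665F, and Y665H and Y665F. None of them was a member in both libraries of a pair. Among cells that should lack these genes, 2 or more Siglech UMIs were found in 1 of 3770 T cells of WT (median depth 6256 UMIs), 2 of 3454 of Y665H (5991) and 0 of 3290 of Y665F (7568.5, which allows a share of up to 0.112%). The class II criterion was met by 6, 6 and 1 of the same T cells and by 6 of 1377, 5 of 1808 and 0 of 668 B cells, the last of which allows up to 0.551%. Among B cells 2 WT, 1 Y665H and 0 Y665F cells held 2 or more Siglech UMIs, which is 0.145%, 0.0553% and at most 0.551%. The limits for Y665F exceed the shares of its Siglech gate (0.0606%) and class II gate (0.505%), so the gates alone do not separate these cells from background, and further markers are given below.

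Most members lay well inside the gates. In the Siglech gate 11 of 12 WT, 13 of 18 Y665H and 3 of 3 Y665F cells held 5 or more Siglech UMIs, and 1 cell, from Y665H, held exactly 2. No cell that passed the other filters held 1 Siglech UMI and lay outside both gates, while members of the class II gate held up to 1. In the class II gate no member held 5 to 9 H2-Aa UMIs, and 10 WT, 14 Y665H and 5 Y665F members had the minimum of 2 UMIs of Flt3, Xcr1, Clec9a and Itgax. Just outside, 12, 15 and 10 cells with enough H2-Aa held 1 such UMI. A further 7, 9 and 0 cells failed on Cd79a alone, and 8, 18 and 2 on the Cd3 genes alone.

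The dendritic cell share of spleen was 1.05% in WT (exact binomial interval 0.823% to 1.33%), 1.51% in Y665H (1.25% to 1.81%) and 0.566% in Y665F (0.376% to 0.817%). The Y665F interval lay below both others, and those of WT and Y665H overlapped. The share was 1.86-fold lower in Y665F than in WT (interval 1.19 to 2.99) and 1.43 times that of WT in Y665H (1.06 to 1.95). T cells make up a different share of each library. Per cell that was not a T cell, the shares were 2.39%, 2.69% and 1.69% in WT, Y665H and Y665F, and both ratios to WT had intervals that include 1 (0.440 to 1.11 for Y665F, 0.833 to 1.53 for Y665H).

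RNA of neutrophils was found in members of the mutant libraries. At least 3 UMIs of S100a8, S100a9, Retnlg, Ngp and Camp together, genes of neutrophil granules and cytosol, were in 0 of 71 WT, 57 of 119 Y665H and 11 of 28 Y665F members. The same held for 24.2% of B cells and 36.3% of T cells of Y665H, 20.7% and 40.8% of Y665F, and 0% and 0.159% of WT. Without all members that held 3 or more UMIs of defining markers of another cell type, 70, 59 and 17 cells remained, and the Y665H share then lay below that of WT (0.749% against 1.04%). With neutrophil genes left out of that criterion, 70, 112 and 28 remained, and Y665H stayed above WT (1.42% against 1.04%). The part of neutrophil RNA in the results below was not tested.

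**Figure D1:**
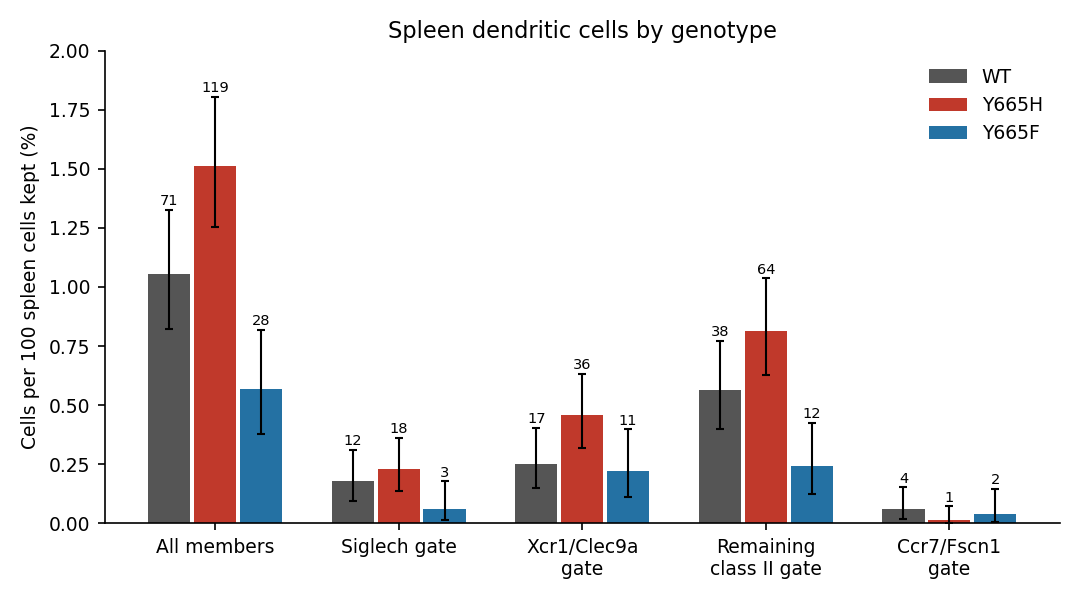
Share of spleen cells that passed the filters (vertical axis, %) in each gate, by genotype. Bars are 1 library each, whiskers are exact 95% binomial intervals and the numbers are cells. All members were at 1.05% in WT, 1.51% in Y665H and 0.566% in Y665F.

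The class II gate was split into cells with 2 or more UMIs of Xcr1 and Clec9a, other cells with 4 or more UMIs of Ccr7 and Fscn1, and the remaining cells. The Siglech gate held 12 WT, 18 Y665H and 3 Y665F cells, which is 16.9%, 15.1% and 10.7% of the members. The Xcr1/Clec9a gate held 17, 36 and 11 cells, the Ccr7/Fscn1 gate 4, 1 and 2, and the remaining class II gate 38, 64 and 12. Per spleen cell, the remaining class II gate was at 0.564% in WT, 0.813% in Y665H and 0.243% in Y665F, and Y665F was at 0.430 of WT (interval 0.205 to 0.841). The Xcr1/Clec9a gate was at 0.252%, 0.457% and 0.222%, and here the Y665F ratio to WT was 0.882 with an interval of 0.373 to 2.00. Xcr1/Clec9a cells were 28.8%, 35.6% and 44.0% of the class II gate, with intervals of the ratio to WT that include 1 in both mutants. A difference between the gates in how far Y665F lay from WT was thus not detectable with these cell numbers.

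Each gate carried the further markers of its kind. Markers not used by the gates were compared between the gates as CPM, the UMIs of a gene per 1000000 summed UMIs of the gate. Of 23 plasmacytoid markers, 19 were highest in the Siglech gate in all 3 libraries. Bst2, an interferon-induced tether of viruses, was at 3553 CPM there against 191 in the Xcr1/Clec9a gate and 195 in the remaining gate. Tcf4, the lineage's own transcription factor, was at 2646 against 59.5 and 188, and Runx2, a factor that these cells need to leave the marrow, at 1022 against 18.3 and 46.7. Klk1, a kallikrein protease, and Cox6a2, a respiratory chain subunit, were at 669 and 614 CPM in the Siglech gate and without a UMI in the others. Ly6d, at 2935 CPM, was also at 2033 in B cells.

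In the Xcr1/Clec9a gate 15 of 17 cDC1 markers were highest in all 3 libraries. Naaa, a lysosomal lipid hydrolase, was at 813 CPM against 6.43 in the Siglech gate and 43.6 in the remaining gate. Cadm1, an adhesion molecule, was at 264 against 48.2 and 4.16, and Tlr3, the receptor of double-stranded RNA, at 171 against 0 and 6.23. Irf8, which both cDC1 and plasmacytoid cells need, was highest in the Siglech gate, at 3694 CPM, with 1744 in the Xcr1/Clec9a gate and 178 in the remaining gate. The protease inhibitor Cst3, abundant in conventional dendritic cells, was at 14964, 16958 and 19931 CPM in the Xcr1/Clec9a cells of WT, Y665H and Y665F, and at 1227, 1956 and 2166 in the remaining cells.

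The remaining class II gate matched the cDC2 list less sharply, with 9 of 20 markers highest there in all 3 libraries and 6 more in 2 of them. Sirpa, an inhibitory receptor, was at 203 CPM against 15.2 in the Xcr1/Clec9a gate, and Clec4a4, the antigen of the 33D1 antibody that marks splenic cDC2, at 44.7 against 0. Dtx1, a Notch target, was at 130 CPM against 3.05, and Itgam, the CD11b integrin, at 113 against 4.57. Cd4 and Zeb2 were higher in the Siglech gate, at 367 and 736 CPM against 154 and 391.6. The markers of dendritic cells as a whole were present in the gates that did not use them as well. Flt3, the receptor of the lineage's growth factor, was at 163, 162 and 247 CPM in the Siglech gate of WT, Y665H and Y665F, against 3.57, 2.13 and 1.0 in B cells.

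**Figure D2:**
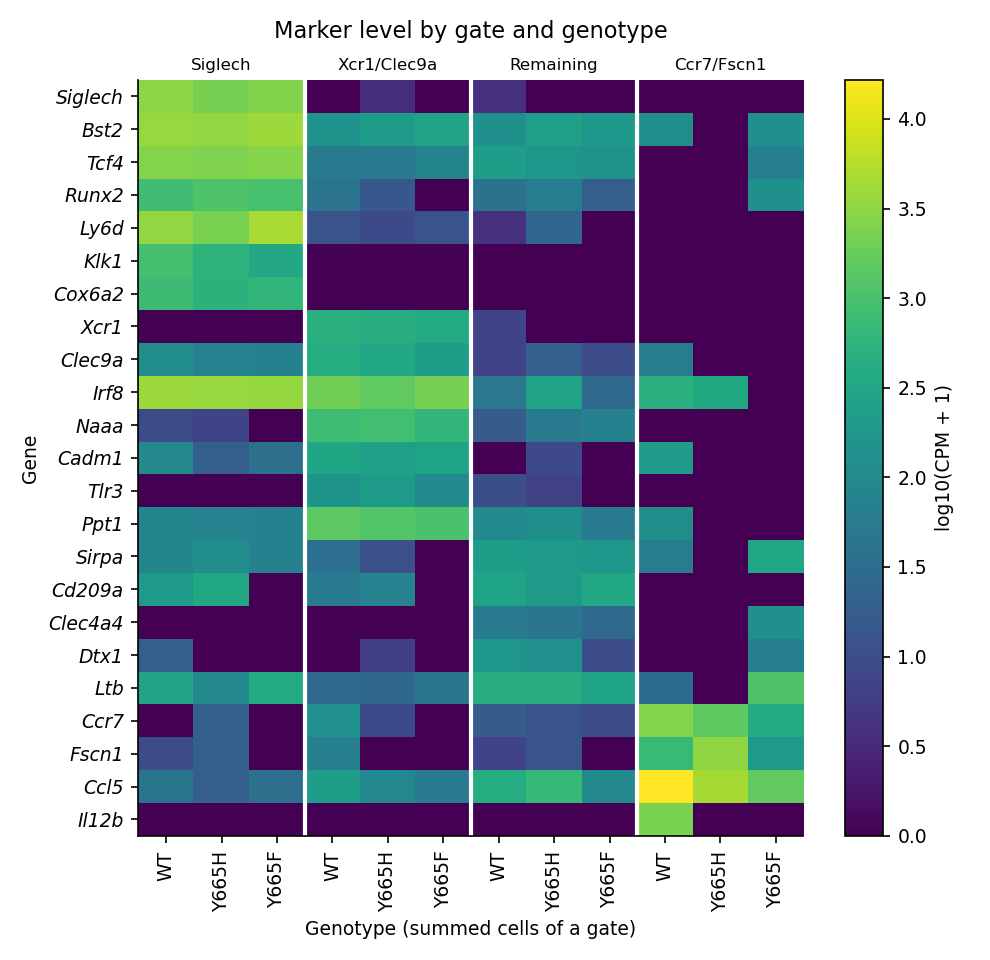
Marker levels as log10(CPM + 1) of the summed cells of each gate (columns, by genotype), with genes in rows. Siglech, Xcr1, Clec9a, Ccr7 and Fscn1 were used to form the gates. Bst2 and Tcf4 mark the Siglech gate, and Naaa and Cadm1 the Xcr1/Clec9a gate, in all 3 libraries. The Ccr7/Fscn1 columns are 4, 1 and 2 cells.

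**Figure D3:**
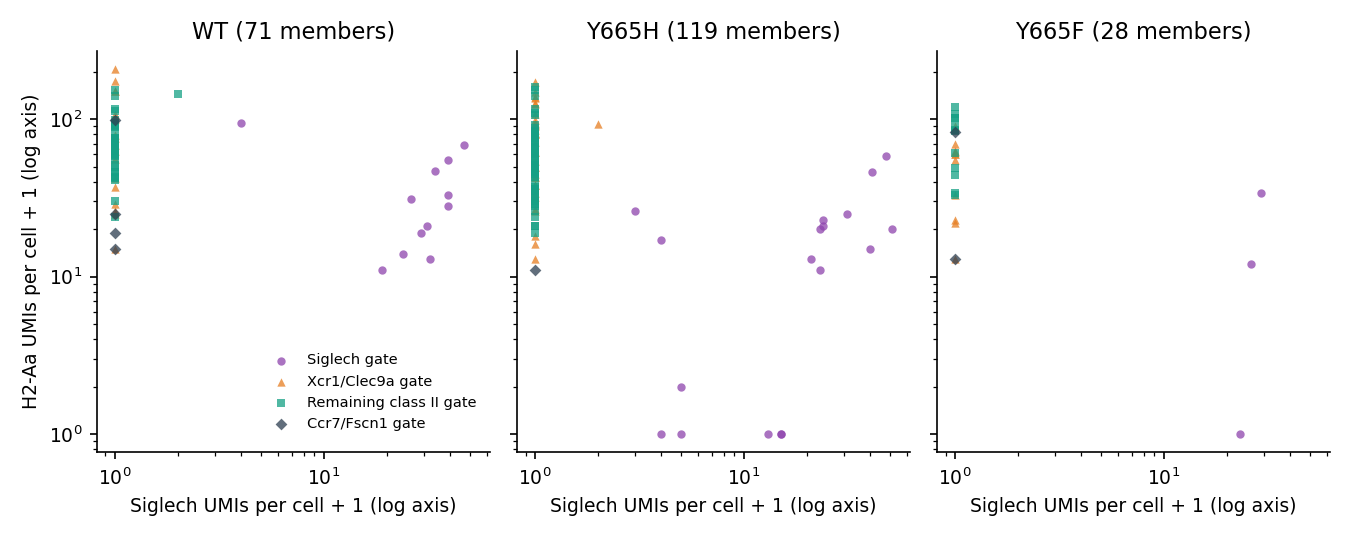
Siglech (horizontal axis) against H2-Aa (vertical axis), both as UMIs per cell + 1 on log axes, 1 point per member, by genotype and gate. Siglech and H2-Aa were used to choose the members. The Siglech gate splits by H2-Aa in the mutants, with 6 of 18 Y665H cells and 1 of 3 Y665F cells at 0 or 1 UMI and the WT cells at 10 or more.

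Cells of the Siglech gate that held almost no MHC class II RNA were found in the mutant libraries. H2-Aa encodes the alpha chain of the class II molecule I-A, and this gate did not use it. All 12 WT cells held between 10 and 93 H2-Aa UMIs, and so 0 of 12 were at 0 or 1 (upper limit of the exact interval 26.5%). In Y665H 6 of 18 cells (33.3%, 13.3% to 59.0%) held 0 or 1 and the other 12 held 10 to 57. In Y665F 1 of 3 cells held 0 and the others 11 and 33. No cell of the gate lay between 1 and 10. The WT and Y665H intervals overlapped. No interval of a ratio or difference between these libraries was computed, so the counts do not settle whether the share differs.

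The split by H2-Aa ran through H2-Ab1, H2-Eb1 and Cd74, and not through H2-DMa, Ifi30 and Ctss, which act in peptide loading and antigen processing. In the 6 Y665H cells H2-Ab1, which encodes the beta chain, was at 0 to 2 UMIs per cell against 6 to 47 in the other 12. Cd74, the invariant chain that guards class II molecules during assembly, was at 0 to 11 with a median of 1, against 19 to 110. H2-Eb1 had no UMI in the 6 cells and 104 in the others. H2-DMa, a chain of the molecule that loads peptides onto class II, was higher in the 6 cells, at 1067 CPM against 431 in the other 12 and 412 in WT. The thiol reductase Ifi30 was at 840, 504 and 515 CPM and the protease Ctss at 910, 669 and 833. The 6 cells were not shallower than the others, with a median of 9638 against 9198.5 UMIs. Of the plasmacytoid markers, Bst2 was at 26 to 35 UMIs per cell, Tcf4 at 13 to 29 and Irf8 at 26 to 48, while others were lower. The sum of Bst2, Tcf4, Ccr9, Ly6d, Cox6a2, Klk1 and Runx2 had a median of 69.5 UMIs in the 6 cells and 132.5 in the other 12. Siglech itself, which the gate used, was lower, with a median of 8 UMIs against 23.

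Other genes set the same 6 cells apart. They were chosen after their values were seen, so the differences are a description. Of 674 genes with at least 20 UMIs in at least 5 cells, 44 were more than 2-fold higher in the 6 cells and 125 more than 2-fold lower. The minimum was applied to the group with the higher CPM. The 6 cells held 57155 UMIs and the other 12 held 109056, so a lower gene was counted from a lower level. The counts of higher and lower genes therefore cannot be compared. Vim, an intermediate filament protein, was at 1732 CPM in the 6 cells, 156 in the other 12 and 25.8 in the WT gate. Runx1, a transcription factor of early blood cells, was at 822, 45.8 and 68.7, and the galectin Lgals3 at 1015, 128 and 25.8. The cysteine-rich protein Crip1 was at 1575, 495 and 146. Cst3 was at 8 to 32 UMIs per cell with a median of 16, against a median of 6.5. Ly6c2, a surface antigen that monocytes and plasmacytoid cells share, had a median of 27.5 UMIs against 10. Cx3cr1 had a median of 3 UMIs against 0, with up to 6 and 3, and the myeloid factor Klf4 a median of 2 against 0, with up to 22 and 8. Ms4a6c, a membrane protein of myeloid cells, was at 735, 138 and 120 CPM in the 6 cells, the other 12 and WT, and Spi1, the factor PU.1, at 402, 165 and 112. The 14 monocyte genes, of which Ly6c2 is 1, summed to 3237, 1889 and 1210 CPM, with 9, 8 and 10 of them without a UMI, Fcgr1, F13a1 and Vcan in each. The part of monocyte RNA in these levels was not tested.

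Other genes were lower in the 6 cells. Klk1 had no UMI in the 6 cells and was at 816 CPM in the other 12 and 936 in WT. Pltp, a phospholipid transfer protein, also had none, against 532 and 498. Ly6d was at 402, 3310 and 3399 CPM, and the gut-homing receptor Ccr9 at 420, 1054 and 944. The class I heavy chain H2-K1 was at 700 against 1962 and 2060, and Jun, an immediate early factor, at 52.5 against 624 and 455. The values of the 12 others lay closer to those of WT than to those of the 6 cells for each gene of this paragraph. The 1 class II-low cell of Y665F shared some of these levels and not others. It had no Klk1 or Pltp UMI, but 90 of Ly6d and 22 of Siglech.

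**Figure D4:**
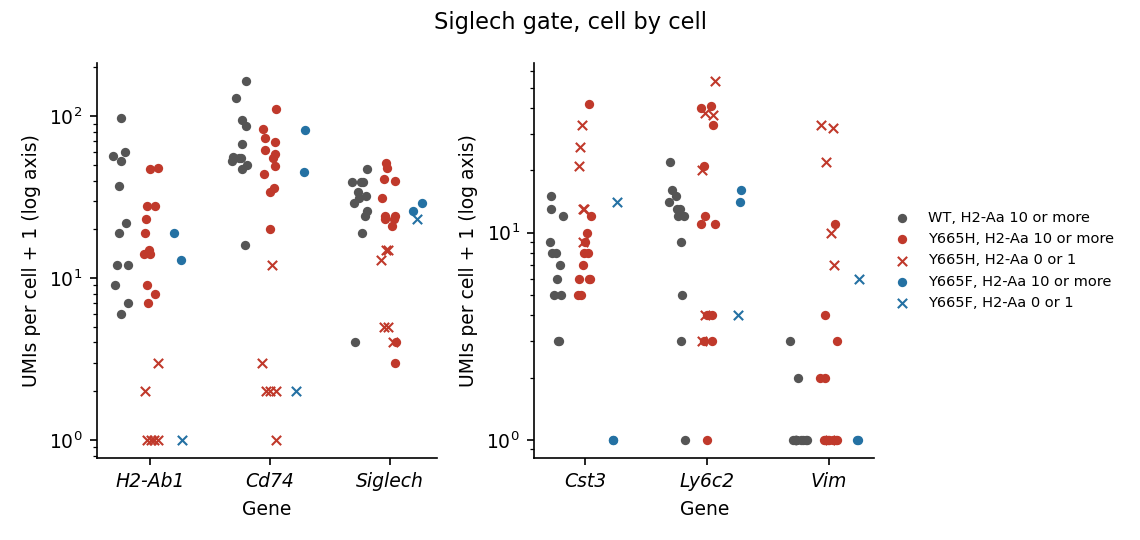
UMIs per cell + 1 (log axes) of 6 genes in each cell of the Siglech gate. Crosses are the 6 Y665H cells and 1 Y665F cell with 0 or 1 H2-Aa UMI, and circles are the cells with 10 or more. H2-Ab1 and Cd74 are at or near 0 in the crosses, and in Y665H the medians of Cst3, Ly6c2 and Vim are higher in the crosses than in the circles. Siglech was used to form the gate.

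In the Siglech gate as a whole, Y665H was compared with WT over 166211 and 116492 summed UMIs. A gene was counted where the library with the higher CPM for it held at least 30 UMIs in at least 10 cells. A CPM ratio past 2 in either direction was called. Of 801 genes counted, 75 (9.36%) were past 2-fold, 60 higher (7.49%) and 15 lower (1.87%) in Y665H. Y665H has more cells and so reaches 30 UMIs at a lower level. With a minimum set at 1 level for both libraries, 28 were higher and 19 lower. Without the class II-low cells, 12 were higher and 12 lower of 574 counted. Without members with other-cell markers 0 were higher and 23 lower of 223 counted, and as this left 9 Y665H cells, none could be counted as higher.

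Of the listed pathways, the interferon-induced genes had 4 of 9 counted members past 2-fold higher in Y665H and 1 lower, beside 7.49% higher and 1.87% lower of all genes counted, with a median log2 ratio of 0.98 against 0.14 over all 801 genes. The higher ones included Irf7, a driver of interferon transcription in these cells, Ifitm3, a barrier to virus entry, and Ifi203. Irf7 was at 42.9 CPM in WT, 217 in Y665H and 282 in Y665F, but 1 cell held 50.0% of the Y665H UMIs. Ifitm3 was at 25.8, 193 and 0 CPM. Ly6a, also interferon-induced, was lower, at 1125 CPM in WT and 529 in Y665H, with 1341 in Y665F. Without the class II-low cells Irf7 had 32 UMIs in 7 Y665H cells and Ifi203 35 in 8, and neither they nor Ifitm3 then met the minimum for a gene to be counted. The levels in the 6 class II-low cells, the other 12 Y665H cells and WT were 70.0, 293 and 42.9 CPM for Irf7 and 297, 321 and 103 for Ifi203, so both were also higher in the other cells than in WT.

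Among the MHC class II genes, 0 of 7 counted were past 2-fold higher and 2 lower, beside 1.87% lower of all genes. H2-Ab1 was at 3262 CPM in WT, 1510 in Y665H and 1059 in Y665F, and H2-Eb1 at 1880, 626 and 741. One WT cell, which held 3 Siglech UMIs and no Irf8, gave 41.6% of the WT UMIs of H2-Eb1 and 25.5% of those of H2-Ab1. Without the cells that lack Irf8, 1 of WT and 1 of Y665H, the Y665H log2 ratios of H2-Eb1 and H2-Ab1 were -0.99 and -0.85, inside 2-fold. Without the class II-low cells the Y665H log2 ratio moved from -1.11 to -0.52 for H2-Ab1 and from -1.59 to -0.98 for H2-Eb1, inside 2-fold. Of 17 plasmacytoid markers counted, Irf7 was past 2-fold higher and Pacsin1 lower, beside 7.49% higher and 1.87% lower of all genes. Pacsin1, an endocytosis adaptor, was at 326 CPM in WT, 114 in Y665H and 141 in Y665F. The other 15 were inside 2-fold, and the median over the list was -0.09.

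The genes with the largest ratios in Y665H were Vim (25.8 and 698 CPM, log2 4.76), Bnip3l, a mitophagy receptor (34.3 and 265), Ifitm3, Crip1 (146 and 866), Slpi, a leukocyte protease inhibitor (34.3 and 193), and Irf7. Slpi was also higher in Y665H B cells, at a log2 ratio of 3.22. The smallest ratios belonged to Zfp644, a zinc finger protein (309 and 66.2 CPM), the syndecan Sdc4 (369 and 108), Zc3h12c (378 and 120), H2-Eb1, Pacsin1 and Gm43305 (567 and 211). Without the class II-low cells Vim had 17 UMIs in Y665H, 10 of them in 1 cell, and 3 in WT, below the minimum. Ccr2, the chemokine receptor by which cells leave the marrow, was at 103 CPM in WT, 307 in Y665H and 106 in Y665F. It is also on the monocyte list, whose 14 genes summed to 1210, 2352 and 1235 CPM in this gate, with 10, 7 and 11 of them without a UMI, and the part of monocyte RNA in these values was not tested.

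In Y665F the Siglech gate was 3 cells and 28334 UMIs. Of 278 genes counted, 37 (13.3%) were past 2-fold and all 37 were lower. A gene could be counted as higher only from 30 UMIs in 10 cells, which 3 cells cannot reach. With a single level for both libraries, 2 were higher and 3 lower. Sept1, Ash1l and Psmb9 had the lowest ratios, each with 1 Y665F UMI against 37, 30 and 30 in WT, and intervals of the log2 ratio whose upper ends were -0.60, -0.28 and -0.28. Next came Ifi30, a thiol reductase of antigen processing (515 and 106 CPM), Tsc22d1 (300 and 70.6) and Cyb561a3, a lysosomal iron reductase (721 and 176). H2-Ab1 and H2-Eb1 also passed, at log2 ratios of -1.62 and -1.34, and without the 1 class II-low cell they did not, at -0.89 and -0.61. H2-Eb1 was also inside 2-fold, at -0.67, without the WT cell that lacks Irf8.

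The class II gate gave 540064 UMIs from 59 WT cells, 911143 from 101 Y665H cells and 218132 from 25 Y665F cells. Against WT, Y665F had 269 of 2112 counted genes past 2-fold (12.7%), 53 higher (2.51%) and 216 lower (10.2%). Y665H had 173 of 3878 (4.46%), 123 higher (3.17%) and 50 lower (1.29%). As 30 UMIs are a higher level in the shallower library, genes were also counted at 1 level for both libraries, which gave 57 higher and 51 lower in Y665F and 53 and 53 in Y665H. The surplus of lower genes in Y665F and of higher genes in Y665H was thus not seen under that minimum. Without members with other-cell markers, 6 were higher and 416 lower in Y665F, from 15 cells, and 22 higher and 79 lower in Y665H, from 50. Median log2 ratios over the counted genes were -0.19 and 0.12.

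Dtx1, a ubiquitin ligase induced by Notch, was at 98.1 CPM in WT, 80.1 in Y665H and 9.17 in Y665F, which is 53, 73 and 2 UMIs. The Y665F log2 ratio was -3.42 (interval -6.50 to -1.50). WT and Y665H lay close together and Y665F stood below both. In the remaining class II gate, where the gene was concentrated, Dtx1 was at 161, 136 and 8.84 CPM, with a log2 ratio of -4.19 in Y665F. B cells, which also express it, were at 62.6, 72.3 and 73.9 CPM. Of 13 cDC2 genes counted, Dtx1, Cd4 (133, 75.7 and 64.2 CPM) and the fractalkine receptor Cx3cr1 (90.7, 50.5 and 36.7) were past 2-fold lower in Y665F and none higher, beside 10.2% lower and 2.51% higher of all genes, with a median of -0.45 against -0.19 over all genes. Without members with other-cell markers the Y665F log2 ratio of Cd4 was 0.0067. The list was summed over the whole class II gate, of which the remaining gate was 38 of 59 cells in WT and 12 of 25 in Y665F. In the remaining gate the Y665F log2 ratio was -0.91 for Cd4, inside 2-fold, and -1.08 for Cx3cr1. A single cell held 75.0% of the 8 Cx3cr1 UMIs of Y665F. The part of this mix of cells in the list values was not tested. In Y665H 0 of 14 passed.

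Egr1, a transcription factor that rises within minutes of stimulation, was at 196 CPM in WT, 230 in Y665H and 18.3 in Y665F (log2 ratio -3.42, interval -5.32 to -2.02). It was seen in 25 of 59 WT, 43 of 101 Y665H and 2 of 25 Y665F cells. Nr4a1, an orphan receptor of the same early class, was at 87.0, 53.8 and 18.3 CPM. Of 20 immediate early and heat shock genes counted in Y665F, these were the 2 past 2-fold lower, a share close to the 10.2% of all genes, and none was higher. Mmp12, a macrophage elastase, was at 98.1, 32.9 and 4.58 CPM and seen in 22, 15 and 1 cells. Its Y665F log2 ratio was -4.42 (interval -9.75 to -1.88). The calcium channel Itpr2 (59.3 and 4.58 CPM) and Bcl2l14, a BCL2 family member (90.7 and 9.17), were also among the 6 lowest in Y665F. Leaving out each gene's highest cell in each library could only lower the ratios of Egr1 and Dtx1. It took 75.0% and 50.0% of their Y665F UMIs against 10.4% and 17.0% of those of WT. How far these 2 differences rest on single cells was thus not tested by it.

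Dusp2, a nuclear phosphatase, and Klf6 were past 2-fold lower in Y665H, at 143 and 52.7 CPM and at 317 and 150 CPM in WT and Y665H, and the heat shock genes Hspa1a and Hspa1b were past 2-fold higher, of 25 immediate early and heat shock genes counted, beside 1.29% lower and 3.17% higher of all genes. In the remaining class II gate the log2 ratios of Dusp2 and Klf6 were -0.45 and -0.12, inside 2-fold, and in the Xcr1/Clec9a gate -1.82 and -1.09. Without all cells that held 4 or more UMIs of Ccr7 and Fscn1, including 1 WT cell of the Xcr1/Clec9a gate, they were -0.53 and -0.21. Hspa1a was at 22.2 CPM in WT, 133 in Y665H and 87.1 in Y665F, and Hspa1b at 48.1, 216 and 110, with Y665H log2 ratios of 2.58 and 2.17. B cells of Y665H moved by 4.48 and 4.47 on the same scale, so this change was not limited to dendritic cells. The summed level of both genes was 57.9, 298 and 174 CPM in all members, 2.44, 54.3 and 52.5 in B cells and 1.44, 24.6 and 26.7 in T cells. WT was lowest in each.

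With every cell included, part of the genes of mature migratory dendritic cells were lower in both mutants. In Y665F 0 of 9 counted were past 2-fold higher and 6 lower, beside 10.2% lower of all genes, with a median log2 ratio of -1.06 against -0.19 over all genes. In Y665H 0 of 11 were higher and 6 lower, beside 1.29% lower of all genes, with a median of -1.06 against 0.12. The chemokine Ccl5 was at 1328 CPM in WT, 428 in Y665H and 183 in Y665F. Apol7c, a pore-forming protein of cDC1, was at 555, 214 and 266, Tmem123 at 204, 76.8 and 64.2, Arl5c at 126, 45 and 27.5, and Cd40, the receptor of T-cell help, at 63.0, 22 and 27.5. The remaining ones were Samsn1 in Y665F (139 and 68.8 CPM) and Il4i1, an amino acid oxidase, in Y665H (117 and 56.0).

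These levels rested on few cells. The 4 WT cells of the Ccr7/Fscn1 gate gave 60.0% of the class II gate's UMIs of the list, the 1 Y665H cell 6.53% and the 2 Y665F cells 52.2%. Ccl5 was at 180, 165, 196 and 0 UMIs in the 4 WT cells, 12 in the Y665H cell and 24 and 0 in the Y665F cells. Il12b, a subunit of interleukin 12, was at 0, 17, 0 and 61 in the WT cells and 0 in the others. Without this gate the Y665H log2 ratio of Ccl5 turned from -1.63 to 0.26. That value keeps 1 Y665H cell of another gate, which held 53.3% of the library's 390 Ccl5 UMIs, and was not computed without it. The Y665H ratios of Tmem123, Arl5c and Apol7c moved inside 2-fold, to -0.82, -0.88 and -0.80. In Y665F the ratios of these 4 genes stayed past 2-fold, at -2.14 for Ccl5, -1.24 for Tmem123, -2.07 for Arl5c and -1.09 for Apol7c. In Xcr1/Clec9a cells the list summed to 2015 CPM in WT, 916 in Y665H and 734 in Y665F. Of the 360 WT UMIs, 188 were in 1 cell, the only Xcr1/Clec9a cell of the 3 libraries that also held 4 or more UMIs of Ccr7 and Fscn1, and without it the WT sum was 1021 CPM. Without this cell and the Ccr7/Fscn1 gate, the Y665F log2 ratios of Apol7c and Tmem123 also moved inside 2-fold, to -0.53 and -0.94, while Ccl5, Arl5c and Cd40 stayed past it, at -1.88, -1.88 and -1.29. In Y665H Ccl5 was then at 0.52, with the cell that held 53.3% of its UMIs still kept. Il4i1 was at 0.20, and Cd40, Tmem123, Arl5c and Apol7c were at -0.95, -0.52, -0.68 and -0.25. Over all genes 116 were then past 2-fold higher and 11 lower in Y665H, of 3749 counted, against the 50 lower with these cells, and 45 higher and 216 lower of 1966 in Y665F. In the remaining gate it summed to 1211, 1545 and 548 CPM, and 1 Y665H cell held 224 of the UMIs. Thinned to 3000 UMIs per cell, Ccl5 turned above 0 in both mutants, Apol7c in Y665F and Cd40 in Y665H. Thinning here and below also applied the gates anew to the thinned counts, without barcodes under 3000 UMIs. It left 48 WT, 84 Y665H and 17 Y665F members, so the cells differ as well as the counts. Without members with other-cell markers Apol7c also turned above 0 in Y665F, at 0.35.

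Socs2, a feedback inhibitor that STAT5 induces, followed the same cells. It had 37 UMIs in the class II gate of WT and 1 in each mutant. In WT, 5, 6, 3 and 11 of the UMIs were in the 4 cells of the Ccr7/Fscn1 gate and 12 in the Xcr1/Clec9a gate, while the remaining gate had none in any library. Cish, another such inhibitor, had 0, 1 and 2 UMIs in WT, Y665H and Y665F, too few for a ratio. Of the list of STAT5 targets and feedback genes, 6 were counted in Y665F, with Pim1, a survival kinase, past 2-fold lower (213, 154 and 105 CPM in WT, Y665H and Y665F) and none higher, beside 10.2% lower of all genes. Thinned to 3000 UMIs per cell, its log2 ratio turned from -1.01 to 0.54, and without the cells with 4 or more Ccr7 and Fscn1 UMIs it was -0.91. In Y665H 0 of 7 passed.

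Stat5b itself was at 61.1 CPM in WT, 30.7 in Y665H and 27.5 in Y665F, or 33, 28 and 6 UMIs. The Y665F log2 ratio of -1.15 had an interval of -2.70 to 0.12, which includes 0, and the Y665H ratio of -0.99 one of -1.77 to -0.22. In the remaining gate Stat5b was at 79.1, 34.5 and 35.4 CPM, and in the Xcr1/Clec9a gate at 16.8, 25.8 and 11.1. Stat5a was at 22.2, 28.5 and 18.3 CPM in the class II gate, with intervals of both log2 ratios that include 0. In the Siglech gate Stat5b was at 42.9, 66.2 and 35.3 CPM from 5, 11 and 1 UMIs. B cells were at 42.9, 38.9 and 31.8 CPM. The altered codon cannot be seen in these counts, so the genotype rests on the labels.

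Of 10 JAK-STAT genes counted in Y665F, 2 were past 2-fold lower, Stat5b among them, and none higher, beside 10.2% lower of all genes. In Y665H 1 of 11 passed, Pias1, a SUMO ligase, which was lower, beside 1.29% lower of all genes. Pias1 was at 83.3 and 39.5 CPM in WT and Y665H. It moved inside 2-fold (log2 -0.83) without the cells with 4 or more Ccr7 and Fscn1 UMIs. Of the cytokine receptors, 0 of 12 were past 2-fold higher in Y665F and 1, the TGF-beta receptor Tgfbr2, lower (64.8 and 22.9 CPM), beside 10.2% lower of all genes. Their median was -0.45 against -0.19 over all genes. None of the 12 had a ratio above 1, against 32.0% of all genes counted, and genes near the minimum are counted mostly through WT, the deeper library. In Y665H 0 of 17 passed. Csf2rb, the shared chain of the GM-CSF receptor, was at 146, 165 and 159 CPM in the remaining gate and 106, 87.8 and 33.4 in the Xcr1/Clec9a gate, the last from 3 UMIs.

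Of 12 MHC class II genes counted in Y665F, H2-Ob, which slows peptide loading, was past 2-fold lower (206, 167 and 77.9 CPM in WT, Y665H and Y665F) and none higher, beside 10.2% lower of all genes, with a list median of -0.23. In Y665H 0 of 13 passed and the median was -0.07. Cd74 was at 17007, 14959 and 14501 CPM in the remaining gate, and H2-Ab1 at 7676, 6925 and 6446. Of 17 class I genes, H2-Q4 and H2-Q6 were lower in Y665F, at 6 and 7 UMIs, with intervals that include a ratio of 1, also beside 10.2% lower of all genes, and 0 of 21 passed in Y665H. Of the transcription factors of dendritic cells, 20 were counted in Y665F, with Etv6 (185 and 91.7 CPM) and Mef2c (218 and 96.3) past 2-fold lower, a share close to the 10.2% of all genes, and 0 of 23 passed in Y665H. In the Xcr1/Clec9a gate alone the Mef2c log2 ratio was 0.58. Batf3 was at 190, 243 and 267 CPM in the Xcr1/Clec9a gate and Irf8 at 1981, 1523 and 2226.

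Of 10 cDC1 genes counted in Y665F, Cd8a, which marks splenic cDC1, was past 2-fold lower, a share close to the 10.2% of all genes. Ifi205, an interferon-inducible DNA sensor of these cells, was past 2-fold higher, beside 2.51% higher of all genes. Cd8a was at 285, 258 and 77.9 CPM in the Xcr1/Clec9a gate of WT, Y665H and Y665F, and Ifi205 at 77.8, 175 and 225 in the class II gate. The Y665F log2 ratio of Ifi205 turned from 1.53 to -0.64 without doublets and to -0.0901 without members with other-cell markers. In Y665H 2 of 16 passed, Ifi205 and the sorting nexin Snx22 (24.1 and 80.1 CPM), both higher, beside 3.17% higher of all genes. Isg15, an interferon-induced ubiquitin-like protein, was the 1 of 14 interferon-induced genes past 2-fold in Y665H, beside 3.17% higher of all genes. It was at 29.6, 83.4 and 50.4 CPM in WT, Y665H and Y665F. Sensors included Cgas, at 13, 37.3 and 50.4 CPM. Ifi27l2a was higher in Y665F, at 257, 290 and 564 CPM.

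Some cell cycle genes were past 2-fold higher in the mutants. In Y665H these were 6 of 13 counted, Pcna, Stmn1, Mcm7, Rrm1, Mki67 and Mcm5, beside 3.17% of all genes, with a median log2 ratio of 1.0 against 0.12 over all genes. In Y665F 2 of 5 were past 2-fold higher, Pcna and Tuba1b, beside 2.51% of all genes, with a median of 0.88. Genes that are low in WT were counted here only through the mutant library, so neither the counts nor the medians describe the whole list of 26. Pcna, the replication clamp, was at 38.9, 93.3 and 183 CPM in WT, Y665H and Y665F, and Lig1, which joins replicated DNA, at 3.70, 40.6 and 41.3 from 2, 37 and 9 UMIs. Mki67, a marker of dividing cells, was at 25.9, 65.9 and 45.8. Cells with 3 or more UMIs of 8 cycle genes were 5 of 59 in WT (8.47%, 2.81% to 18.7%), 12 of 101 in Y665H (11.9%, 6.29% to 19.8%) and 4 of 25 in Y665F (16%, 4.54% to 36.1%). Those intervals overlapped, and single cells held 13, 82 and 56 of the 43, 267 and 75 UMIs of these genes. Without members that held markers of other cells, Pcna, Stmn1, Mcm7 and Mki67 moved inside 2-fold in Y665H, at log2 ratios of 0.94, 0.44, 0.31 and 0.05, and Rrm1 and Mcm5 turned below 0. In Y665F Pcna moved to 0.65 and Tuba1b turned below 0. Thinned to 3000 UMIs per cell, Lig1, Stmn1 and Mcm5 turned below 0 in Y665H.

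Beside Pcna, the 6 largest ratios in Y665F were of Fabp5, Lgals1, Pgam1, Tpi1 and C1qbp. Fabp5, a fatty acid carrier, was at 74.1, 47.2 and 371 CPM in WT, Y665H and Y665F, and 66.7% of the Y665F UMIs and 72.5% of the WT UMIs were in 1 cell each. Lgals1, a galectin, was at 128, 288 and 449, and its Y665F log2 ratio turned from 1.81 to -0.0694 without members with other-cell markers. The glycolytic enzymes Pgam1 and Tpi1 were at 46.3, 96.6 and 147 CPM and at 44.4, 63.7 and 138 CPM, and the mitochondrial protein C1qbp was at 70.4, 123 and 215. In Y665H the largest included Lig1, Hspa1a, Hspa1b, Upf1, an RNA decay helicase (9.26, 40.6 and 50.4), and the histone gene Hist1h2ap (44.4, 180 and 13.8), 51.2% of whose Y665H UMIs were in 1 cell. The smallest in Y665H included Gbp4, an interferon-induced GTPase (68.5, 8.78 and 0 CPM), Gclc, Pfkfb3, Nabp1 and Arhgap22. For Gclc, 78.2% of the 87 WT UMIs were in 1 cell, and its Y665H log2 ratio turned from -2.44 to 0.82 without doublets. Without the cells with 4 or more Ccr7 and Fscn1 UMIs it was 0.66, and those of Pfkfb3, Nabp1 and Arhgap22 were -0.32, -0.39 and -0.42, inside 2-fold.

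**Figure D5:**
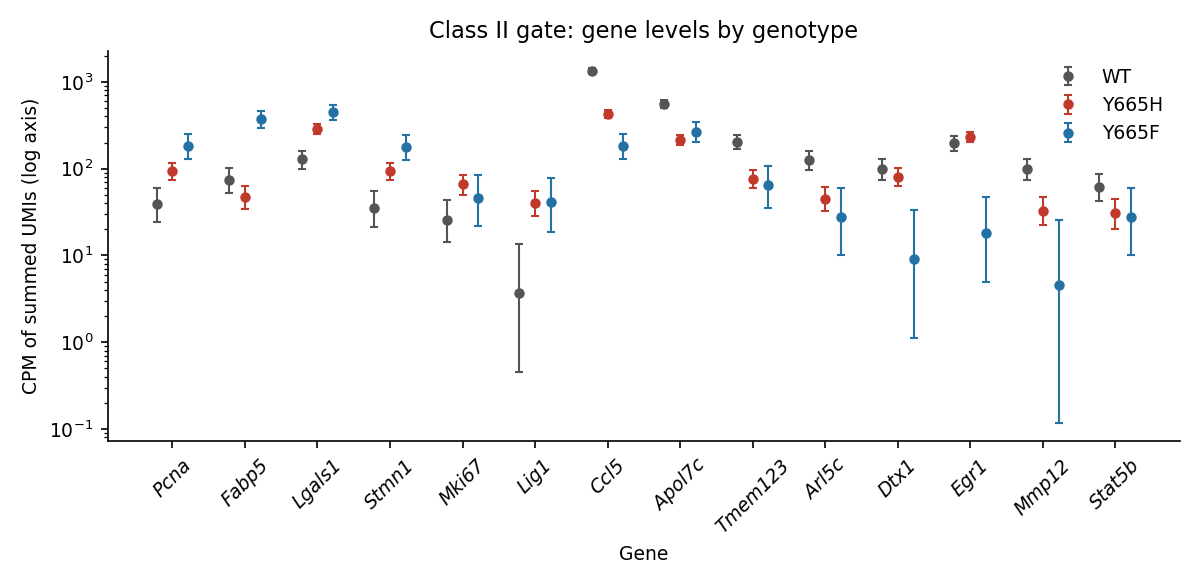
Levels of 14 genes in the class II gate as CPM of summed UMIs (log axis), by genotype. Points are 1 library each and bars are exact 95% Poisson intervals of the counts. Dtx1 and Egr1 are low in Y665F and not in Y665H, Mmp12 is lower in Y665H and lowest in Y665F, and Ccl5, Apol7c, Tmem123 and Arl5c are lower in both mutants with every cell included.

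Over all members, Y665F had 294 of 2583 counted genes past 2-fold (11.4%), 39 higher (1.51%) and 255 lower (9.87%). Y665H had 157 of 4513 (3.48%), 104 higher (2.3%) and 53 lower (1.17%). Between the Xcr1/Clec9a gate and the remaining class II gate, no gene counted in both was past 2-fold in opposite directions, of 350 in Y665F and 1323 in Y665H. St8sia4 in Y665F and, among others, Bcl2a1a, Hbb-bs and Hspa1b in Y665H were past 2-fold the same way in both. Hemoglobin RNA, which stands for red cells, was at 10.7, 193 and 28.4 CPM in the members of WT, Y665H and Y665F and at 16.2, 256 and 9.69 in B cells. In the class II gate the summed levels of the lists of other cells were 53.7, 391.8 and 408 CPM for 15 neutrophil genes, 885, 811 and 1036 for 14 monocyte genes, 191, 227 and 170 for 14 macrophage genes, 522, 653 and 289 for 12 B-cell genes, 117, 123 and 45.8 for 14 T-cell genes and 298, 313 and 261 for 12 natural killer genes. They were 228, 214 and 156 for 10 plasma cell genes, 16.7, 195 and 36.7 for 9 erythroid genes, 9.26, 7.68 and 18.3 for 10 basophil and mast cell genes and 248, 184 and 238 for 8 genes of innate lymphoid cells and progenitors. Of the neutrophil genes 6, 3 and 3 had no UMI, of the monocyte genes 2, 1 and 2, of the macrophage genes 7, 5 and 9, of the B-cell genes 2, 0 and 5, of the T-cell genes 3, 0 and 7, and of the natural killer genes 1, 1 and 7. B cells themselves were at 41946, 33895 and 33359 CPM of the B-cell genes. The monocyte genes were at 800, 692 and 289 CPM in the Xcr1/Clec9a gate and at 1010, 902 and 1768 in the remaining gate. The part of monocyte RNA in the values of these gates was not tested.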

How the data were processed

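Spleen CD45+ cells of 1 library per genotype were measured on the 10x Genomics platform. The deposited matrices hold unnormalized UMI counts for every gene and barcode, from Cell Ranger runs of the authors (version 6.0.0 in the spleen headers, 5.0 in the labels) on mm10. The labels name a 3′ kit and the methods a 5′ kit. Replicate libraries exist for bone marrow and lymph node only.

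Members and gene lists were chosen with earlier results of these data known. UMIs were summed over the members of a gate, scaled to CPM, and given with exact Poisson, Clopper-Pearson and conditional ratio intervals (scipy 1.17.1 and numpy 2.4.6 under Python 3.11.15), after tests on simulated data. Where a library had no UMI, 3 counts per library served as its floor. Named genes were, per gate and contrast, the 6 largest and 6 smallest ratios past 2-fold outside rule, receptor, immunoglobulin, hemoglobin, mitochondrial, ribosomal, sex-linked and other-cell genes, every listed gene past 2-fold, and Stat5a, Stat5b and Cish; genes of the class II-low cells were chosen after their values were seen. Some genes that this rule names are not reported here. Doublets, scored with scanpy 1.11.5, were kept (9 WT, 21 Y665H and 7 Y665F members) and left out in an alternative. A planned edgeR test in bone marrow was not run because of few cells. The Siglech gate there held 9 and 0 cells in WT, 4 and 1 in Y665H and 8 and 1 in Y665F.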

Additional observations from a re-analysis of the deposited data

How the results depend on the processing

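Directions of cell shares were mostly kept. With members that carry markers of other cells left out, the log2 share against WT moved from -0.90 to -1.59 in Y665F and from 0.52 to -0.47 in Y665H. With neutrophil genes left out of that criterion (added after seeing the data, as were the alternatives of non-T denominator, equal level, highest cell, class II-low, no Irf8, no Ccr7 and Fscn1, and single gates) it was -0.88 and 0.45. Thinned to 3000 UMIs per cell, the Xcr1/Clec9a share of the class II gate changed sign within its interval, from 0.61 to -0.58 in Y665F and from 0.31 to -0.45 in Y665H. All values after thinning are of members chosen anew on the thinned counts.

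Numbers of genes past 2-fold depended on cells and minimum. In the order Siglech gate, class II gate, all members, they were 37, 269 and 294 in Y665F and 75, 173 and 157 in Y665H. Thinning gave 3, 28 and 63, and 9, 34 and 44. A minimum of 10 UMIs in 5 cells gave 379, 1093 and 1116, and 626, 837 and 765. A minimum of 100 UMIs in 20 cells gave 26 and 26, and 17 and 16, in the class II gate and all members, and could not be run in the Siglech gate. The equal level minimum gave 5, 108 and 94, and 47, 106 and 92. Without members with other-cell markers the class II gate had 422 in Y665F and 101 in Y665H, and the Siglech gate 23 in Y665H. In the Siglech gate, TMM factors gave 103 in Y665F, leaving out each gene's highest cell 130, and leaving out class II-low cells 58 in Y665F and 24 in Y665H, while Y665H had 47 without doublets and 45 with stricter gates. The Xcr1/Clec9a gate alone had 44 in Y665F, and the remaining gate alone 84 in Y665H.

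Of 1621 values of named genes under alternatives, 1348 kept direction and side of 2-fold, 220 kept direction inside 2-fold, 9 passed it and 44 changed sign. The 1348 include every value under the lower, higher and equal level minimums. A minimum sets which genes are counted and does not alter their ratios. Those values could therefore not change and do not show how stable the ratios are. After thinning the log2 ratios were 0.53 (Pacsin1) in the Siglech gate of Y665F, -0.11 (Cd48) and -0.43 (Spi1) in that of Y665H, 0.32 (Ccl5), 0.30 (Apol7c), 0.51 (Samsn1), 0.54 (Pim1) and 0.32 (H2-Q4) in the class II gate of Y665F, and -0.26 (Lig1), 1.81 (Gclc), 0.58 (Cd40), -0.0931 (Stmn1), -0.68 (Mcm5), 0.58 (Cxcl16) and 0.68 (Ccl5) in that of Y665H. All others are of the class II gate. Without doublets they were -0.64 (Ifi205, Y665F) and 0.82 (Gclc, Y665H), and with stricter gates 0.40 (Gclc) and 0.22 (Ccl5) in Y665H. Without members with other-cell markers they were -0.0694 (Lgals1), -0.0901 (Ifi205), 0.0067 (Cd4), 0.35 (Apol7c), -0.15 (Tuba1b) and 0.0927 (H2-Q6) in Y665F, and -0.12 (Rrm1) and -0.45 (Mcm5) in Y665H. The mean of per-cell CPM gave 0.025 (Apol7c, Y665F). Without the Ccr7/Fscn1 gate Y665H had 0.54 (Gclc), 0.0814 (Cxcl16) and 0.26 (Ccl5), and without any cell of 4 or more Ccr7 and Fscn1 UMIs 0.66 (Gclc), 0.20 (Il4i1), 0.72 (Cxcl16) and 0.52 (Ccl5). In the Xcr1/Clec9a gate alone they were 0.58 (Mef2c), -0.0082 (Tuba1b) and 1.25 (Samsn1) in Y665F and 1.47 (Gclc) in Y665H, and in the remaining gate alone 0.49 (Gclc), 0.33 (Arhgap22), 0.33 (Il4i1), 0.79 (Cxcl16) and 0.67 (Ccl5) in Y665H. The cause of each was not tested.

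No paired analysis was possible because each genotype had 1 spleen library. The main limits are that library and 1 to 101 cells per gate and genotype. Genes under 30 UMIs and shares that differ by less than their intervals therefore cannot be resolved. The bone marrow test and its alternatives were not run.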

Other observations

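The low level of class II RNA in part of the Siglech gate was also read in the other tissues, which the comparisons above do not use. In bone marrow 9 of 9 cells of WT replicate 1 held 0 or 1 H2-Aa UMI, as did 3 of 4 and 1 of 1 in Y665H and 8 of 8 and 1 of 1 in Y665F, while WT replicate 2 had no cell in this gate. In lymph node it was 3 of 16 and 2 of 15 in WT, 0 of 8, 1 of 3 and 1 of 2 in heterozygous Y665F, and 2 of 4 and 0 of 2 in homozygous Y665F. These cells were shallower than those of spleen, with medians between 770 and 5046 UMIs against 9331 to 9576, so that fewer H2-Aa UMIs can be seen in them.

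Ccl4, an inflammatory chemokine, was at 124 UMIs in the Siglech gate of WT, of which 107 were in 1 cell, and at 1 and 0 UMIs in Y665H and Y665F. One WT cell of this gate held 3 Siglech, 93 H2-Aa and 1 Bst2 UMIs and no Irf8, unlike the other WT cells.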
